A study of Mus musculus with 34 samples.

Results

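Il6 RNA was measured in the lungs of 34 female mice after ozone (O3) or filtered air (FA), and is described here as 1 of the 84 gene wells of an inflammatory PCR array. The deposited files name wells by their position on the plate. Il6 is well E9, assigned because the deposited fold changes of that well, and of no other of the 84, gave the difference that the study printed for Il6. Expression is given as -ΔCt, obtained by subtracting the threshold cycle (Ct) of Il6 from the mean Ct of 4 reference wells, H1, H2, H3 and H5. It is on a log2 scale, so that at full PCR efficiency a mouse with 2 times the Il6 RNA of another has a value higher by 1. All mice were C57BL/6 females (C57BL/6J in the study's methods) aged 8 weeks, exposed for 3 h either to 2 ppm of O3 or to FA, with lung tissue taken later the same day. The stage of the estrous cycle at exposure was read from vaginal smears. In proestrus there were 6 FA and 5 O3 mice, in estrus 6 FA and 3 O3 mice, in metestrus 4 FA and 3 O3 mice, and in diestrus 4 FA and 3 O3 mice. Proestrus and estrus form the follicular phase (12 FA and 8 O3 mice), and metestrus and diestrus the luteal phase (8 FA and 6 O3 mice). RNA came from homogenates of whole lung, so more Il6-expressing cells and more Il6 RNA per cell cannot be told apart, and no named well holds a defining marker of a lung cell type against which the tissue label could be checked.

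Il6 encodes interleukin-6, a cytokine secreted by macrophages, epithelial cells, fibroblasts and other cells of an inflamed tissue. It signals through a receptor complex that contains gp130 and activates JAK kinases and STAT3, and it drives the acute-phase response of the liver. Transcription of Il6 is low in resting tissue and is switched on by NF-kB, AP-1, C/EBP and CREB factors downstream of Toll-like and interleukin-1 receptors, which makes its RNA a common readout of inhaled irritants.

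The bases just before the start of Il6 are shown because the genes measured beside it belong to a programme driven by some of the same factors. In RefSeq (GRCm38.p6) the gene lies on the plus strand of chromosome 5, from 30013114 to 30019975. The 250 bases before its start, chr5:30012864-30013113 on the plus strand, are given from 5′ to 3′, with capitals for the matches to the motifs that were searched:
Il6 promoter: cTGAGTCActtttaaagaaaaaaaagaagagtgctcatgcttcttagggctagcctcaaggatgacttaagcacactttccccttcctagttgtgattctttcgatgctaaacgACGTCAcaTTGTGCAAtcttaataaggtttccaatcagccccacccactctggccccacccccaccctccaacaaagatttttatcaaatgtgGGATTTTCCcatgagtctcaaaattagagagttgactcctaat
Both strands were searched for 5 motifs. The NF-kB motif GGNNTTTCC matched from base -43 to -35 relative to the start, and 4.93% of 32536 distinct RefSeq promoter windows of this length hold it. The AP-1 motif TGANTCA matched from -249 to -243 (6.73% of windows), the C/EBP motif TTGCNNAA from -128 to -121 on the minus strand (9.57%), and the core of the cAMP response element TGACGT from -136 to -131 on the minus strand (6.50%). The matches did not overlap each other. TATAAA was not found in this window (12.3% of windows hold it). Of the 12 genes of an inflammatory list described below, 8 had a promoter in the table, and the NF-kB motif was found for 4 of them, Cxcl1, Cxcl2, Cxcl3 and Ccl20. The C/EBP motif was found for 2 of the 8 (Il1r1 and Ptgs2), the cAMP response element core for 2 (Fos and Cxcl1), TATAAA for 3 and the AP-1 motif for 0. Of the named genes outside the list, Ltb, which was lower after O3, and Cxcl10, which was higher, also held the NF-kB motif. Cxcl10 held the AP-1 motif as well. These matches describe letters and do not show that a factor was bound.

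Of the 2856 values of the 84 array wells, 237 (8.30%) had no Ct. The mean Ct of the 4 reference wells lay between 18.6 and 23.2 in FA mice and between 19.7 and 22.4 in O3 mice. The deposited Ct of 22 mice had 3 decimals, that of 8 mice 6 decimals and that of 4 mice more. All 6 O3 luteal mice had 3 decimals, while the 8 O3 follicular mice had 3 decimals (3 mice), 6 decimals (4 mice) or more (1 mouse). What the number of decimals stands for is not stated, and values within a format are given beside the Il6 results and the counts of the gene list. In 3 of the 4 mice with more decimals, the positive PCR control wells (H10 to H12 on arrays of this family) had a mean Ct of 27.5 (FA diestrus replicate 2), 23.6 (FA proestrus replicate 1) and 23.1 (O3 estrus replicate 1), above the highest value of the 3-decimal mice (21.3). In the 8 mice with 6 decimals, these wells had a median of 19.4 (19.01 to 20.9), against 20.6 (19.9 to 21.3) in the 3-decimal mice.

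Il6 was higher after O3 in every stage, and each of the 14 O3 mice had more Il6 than each of the 20 FA mice. The 12 FA mice with no Ct for Il6 were given a Ct of 40. Their values therefore differ from each other only by the reference Ct, and they enter the ranges, medians and means below. In proestrus, the -ΔCt of the 5 O3 mice was -11.18, -9.39, -8.50, -8.50 and -7.89, and the 6 FA mice ranged from -19.19 to -13.24 with a median of -18.28. In estrus, the 3 O3 mice were at -12.17, -10.05 and -8.17, and the 6 FA mice ranged from -20.14 to -13.79 with a median of -16.58. The O3 mice lay above the FA mice without overlap in both stages of the follicular phase. In metestrus, the 3 O3 mice were at -11.59, -10.13 and -10.09, and the 4 FA mice at -19.91, -19.79, -17.98 and -15.42. Of these FA values, only -15.42 came from a measured Ct. In diestrus, the 3 O3 mice were at -10.57, -10.31 and -10.02, and the 4 FA mice at -19.49, -17.58, -14.17 and -13.78. Here only the FA values -14.17 and -13.78 came from a measured Ct. The groups again did not overlap, and the O3 mice were closer together in diestrus (SD 0.274) than in estrus (SD 2.00). The 3 O3 diestrus mice all had 3 decimals in the Ct, whereas the 3 O3 estrus mice each had a different format.

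**Figure D1:**
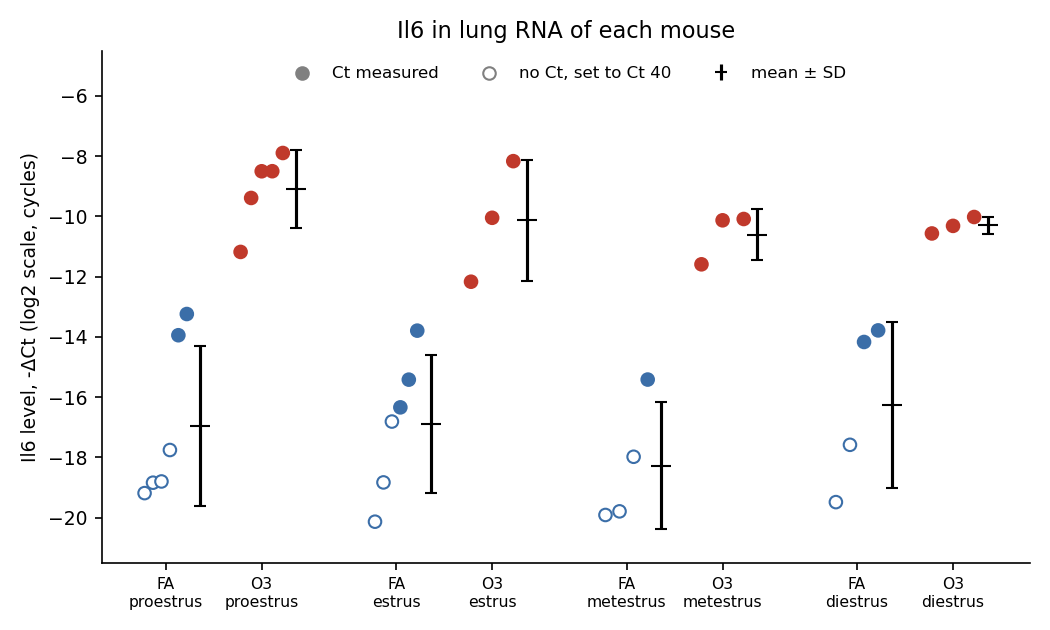
Il6 level as -ΔCt (log2 scale, in cycles) of each of the 34 mice by exposure and stage. Filled points have a measured Ct, open points had none and were set to a Ct of 40, and the black marks are the mean ± SD of a group. All 14 O3 mice lie at -12.17 or higher and all 20 FA mice at -13.24 or lower.

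The lowest O3 mouse and the highest FA mouse were 1.07 apart on the log2 scale. Il6 was the only 1 of the 84 wells (1.19%) in which all O3 mice lay above all FA mice. It also met this condition when empty wells were set to 36 (gap 0.643), with the mean Ct of well-measured array genes as the reference (gap 1.12), and with each of the 4 reference wells alone (gaps from 0.295 to 1.41). With H3 alone a second well met it, Ccl20, which encodes a chemokine that attracts dendritic cells and lymphocytes. Without any reference, the raw Ct of 11 of the 14 O3 mice was below the Ct of every FA mouse, and no well separated the groups completely.

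Averaged over the 4 stages, the log2 fold change of Il6 was 7.07 (standard error 0.720, 95% interval 5.59 to 8.54, limma adjusted p = 1.09e-08), and 28 of the 84 wells (33.3%) passed a false discovery rate (FDR) of 0.05 in this comparison. A permutation of O3 and FA within stages gave p = 1e-05, the smallest value that 100000 permutations can give. In proestrus the log2 fold change was 7.87 (standard error 1.22, adjusted p = 4.58e-05, with 14.3% of wells called), and in estrus it was 6.76 (standard error 1.43, adjusted p = 0.00117, 14.3% called). In metestrus it was 7.67 (standard error 1.54, adjusted p = 0.00243, 7.14% called), and in diestrus 5.96 (standard error 1.54, adjusted p = 0.0101, 11.9% called). With -ΔCt, Il6 passed the test in all 4 stages and had the smallest p of the 84 wells in proestrus and metestrus. In estrus and diestrus, other wells had a smaller p than Il6. Exact permutation tests on Il6 alone gave two-sided p = 0.00433 in proestrus, 0.0119 in estrus, 0.0286 in metestrus and 0.0286 in diestrus. The last 3 are the smallest that groups of these sizes allow. The diestrus call did not hold in a fit of only the 7 diestrus mice (adjusted p = 0.240), nor in the 3-decimal mice (log2 fold change 6.53, adjusted p = 0.0611), in which the estrus call was not made either (6.86, adjusted p = 0.146). The metestrus and diestrus calls were lost without a reference (adjusted p = 0.0790 and 0.109) and on the linear fold changes (0.941 and 0.535). Exact permutation tests of Il6 alone on the linear fold changes gave p = 0.0286 in both stages.

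A difference of Il6 response between stages was not detected. Across the 4 stages, the O3 mice gave a moderated F of 0.439 (limma adjusted p = 0.814, 2.38% of wells called) and the FA mice an F of 0.714 (adjusted p = 0.996, 0% called, 3 wells under 0.05 before adjustment). For exposure by stage, the interaction F was 0.378 (adjusted p = 0.965, 0% called, 6 wells under 0.05 before adjustment). Ordered by mean -ΔCt, the O3 groups stood in the order proestrus (-9.09 ± 1.28, SD, n = 5), estrus (-10.13 ± 2.00, n = 3), diestrus (-10.30 ± 0.274, n = 3) and metestrus (-10.60 ± 0.856, n = 3). The FA groups followed in the order diestrus (-16.26 ± 2.75, n = 4), estrus (-16.89 ± 2.30, n = 6), proestrus (-16.96 ± 2.66, n = 6) and metestrus (-18.28 ± 2.10, n = 4). Neighbours of the same exposure did not differ beyond their spread, with exact permutation p-values from 0.429 to 0.800 between O3 groups and from 0.433 to 0.957 between FA groups. These pairs were picked because their means were closest, so their p-values cannot show that the stages are alike. Groups farther apart in the order were compared only through the F tests above. O3 metestrus and FA diestrus, the neighbours across exposures, were 5.65 apart without overlap, with an exact permutation p of 0.0571.

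Detection of Il6 differed between the exposures. A Ct was recorded in 14 of 14 O3 mice (100%, exact 95% interval 76.8% to 100%) and in 8 of 20 FA mice (40%, interval 19.1% to 63.9%), with Fisher's exact p = 0.000243 (0.000729 after adjustment over 3 tests). In the follicular phase it was recorded in 8 of 8 O3 and 5 of 12 FA mice (adjusted exact p = 0.0220), and in the luteal phase in 6 of 6 O3 and 3 of 8 FA mice (adjusted exact p = 0.0310). Of the FA mice, 2 of 6 had a Ct in proestrus, 3 of 6 in estrus, 1 of 4 in metestrus and 2 of 4 in diestrus. No stage alone passed Fisher's exact test (unadjusted p from 0.0606 to 0.464). When only a Ct of at most 35 counted as detected, the counts were 14 of 14 O3 and 4 of 20 FA mice (adjusted exact p = 6.85e-06). Among the 84 array wells, 7 gave a Ct in every O3 mouse but not in every FA mouse. Of these 7, Il6 had a Ct in the fewest FA mice (8 of 20). Conversely, 5 wells gave a Ct in every FA mouse but not in every O3 mouse. Well H6, the genomic DNA control on arrays of this family, gave a Ct in 3 FA mice and 1 O3 mouse, and 2 of the 8 FA mice with an Il6 Ct were among them (estrus replicate 4 and diestrus replicate 1). In the mice with no Ct in H6, Il6 had a Ct in 13 of 13 O3 and 6 of 17 FA mice (adjusted exact p = 0.000951), and in the luteal phase in 5 of 5 and 2 of 6 (adjusted exact p = 0.0606).

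Detection of Il6 was also compared between mice of lower and higher reference Ct. The 34 mice were divided at their median reference Ct of 20.7, a division chosen after the values were seen. At or below it, Il6 had a Ct in 6 of 10 FA mice, and above it in 2 of 10, a difference that did not pass Fisher's exact test (p = 0.170), while all 7 O3 mice had a Ct on either side. O3 against FA gave an exact p of 0.309 at or below the median and 0.00679 above it, each adjusted over 3 tests. Within the 3-decimal mice, a Ct was recorded in 9 of 9 O3 and 6 of 13 FA mice, which just missed the threshold (adjusted exact p = 0.05003). The luteal call also rested on few mice, since leaving out any 1 of 11 mice of that phase moved its adjusted p above 0.05.

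**Figure D2:**
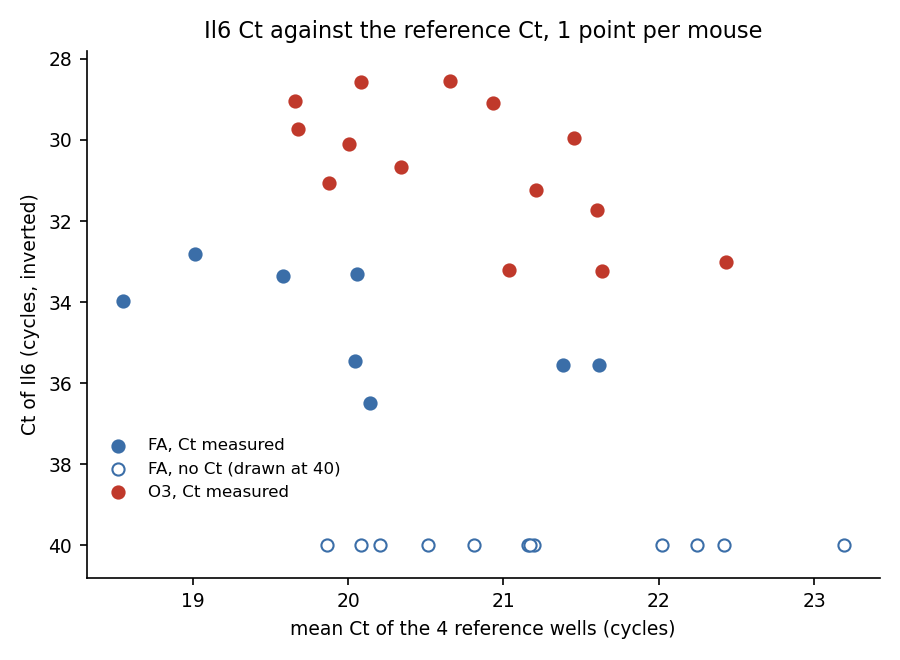
Ct of Il6 (cycles, inverted so that more RNA is higher) against the mean Ct of the 4 reference wells (cycles), 1 point per mouse. Filled points are measured, and the 12 FA mice with no Ct are drawn as open points at 40. The O3 mice lie between a Ct of 28.6 and 33.2 and the FA mice with a Ct between 32.8 and 36.5.

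Because 12 FA mice had no Ct, the size of the Il6 response depended on the Ct that these wells were given. With a Ct of 40, above every measured value, the log2 fold change over the 4 stages was 7.07, and with each lower Ct it fell, to 6.46 with 39, 5.86 with 38, 5.25 with 37 and 4.65 with 36. The Ct of 36 is the value that the authors used: with it, all 3026 deposited fold changes were recovered to within 0.00051. One FA mouse, estrus replicate 4, had a measured Ct of 36.5, so that with 36 the mice without a Ct were given a lower Ct than this mouse. With every Ct above 35 or missing set to 35, the log2 fold change was 3.91, and with the wells left missing it was 4.51, from the 8 FA mice in which Il6 was detected. With Il6 left missing, the stages gave 4.50 in proestrus, 5.06 in estrus, 4.82 in metestrus and 3.68 in diestrus. The direction and the call were the same in all of these. The measured values alone thus gave a smaller log2 fold change than those with a Ct of 40, and they leave out the FA mice in which no Il6 was amplified.

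**Figure D3:**
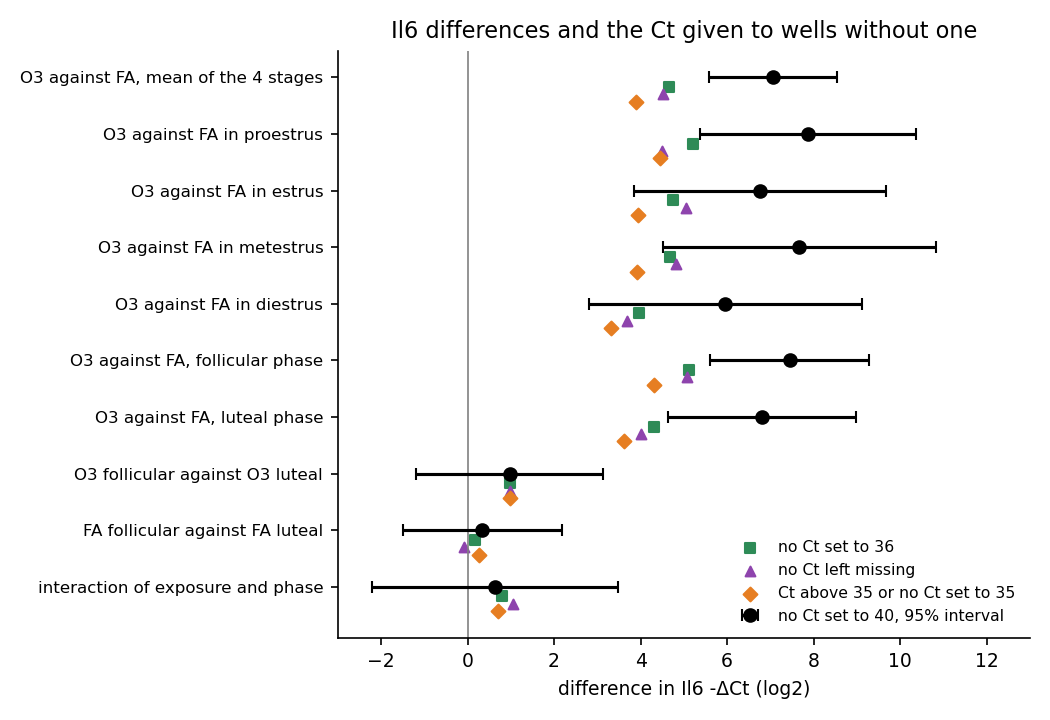
Differences in Il6 -ΔCt (log2) for each comparison. Black points are the values with a Ct of 40 for wells without one, with 95% intervals, and the colored symbols show other treatments of these wells. The 7 comparisons of O3 with FA lie above 0 under all treatments, and the intervals of the last 3 comparisons include 0.

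The same comparison within each phase asked whether the Il6 response to O3 depended on the estrous cycle. In the follicular phase, Il6 ranged from -12.17 to -7.89 (median -8.94) in the 8 O3 mice and from -20.14 to -13.24 (median -17.28) in the 12 FA mice. The log2 fold change was 7.44 (standard error 0.901, 95% interval 5.61 to 9.28, limma adjusted p = 1.49e-07, 22.6% of wells called). In the luteal phase, Il6 ranged from -11.59 to -10.02 (median -10.22) in the 6 O3 mice and from -19.91 to -13.78 (median -17.78) in the 8 FA mice. The log2 fold change was 6.81 (standard error 1.07, 95% interval 4.65 to 8.98, adjusted p = 2.79e-05, 21.4% called). Il6 rose in both phases, with the smallest p of the 84 wells in each. On the linear scale of the deposited fold changes the luteal limma call was lost (difference 10.1, adjusted p = 0.244). An exact permutation test of Il6 alone on that scale gave p = 0.000333, the smallest that groups of these sizes allow. The interaction of exposure and phase was 0.63 (95% interval -2.21 to 3.47, adjusted p = 0.846), and 0% of wells were called, with 19 at an unadjusted p under 0.05. FA follicular and FA luteal mice differed by 0.34 (95% interval -1.49 to 2.17, adjusted p = 0.982), with 0% of wells called and 5 at an unadjusted p under 0.05.

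Among the O3 mice, Il6 was 0.97 higher on the log2 scale in the follicular than in the luteal phase, with a 95% interval from -1.20 to 3.14 (limma adjusted p = 0.542, 8.33% of wells called; exact permutation p = 0.166). On the linear scale of the deposited fold changes, which are relative to FA diestrus replicate 1, the 8 O3 follicular mice ranged from 3.07 to 59.3 with a median of 29.998. The 6 O3 luteal mice ranged from 4.58 to 13.6 with a median of 11.8. Of the follicular mice, 5 were above every luteal mouse, 1 lay below every luteal mouse and the others lay within their range. On this scale limma gave a difference of 18.1 (adjusted p = 0.0355), whereas an exact permutation test of Il6 alone gave p = 0.0576, so the call depended on the scale and on the test.

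The difference between the O3 phases was also viewed by the format of the Ct values. All 6 O3 luteal mice had 3 decimals, so format and phase cannot be fully told apart among the O3 mice. The 3 O3 follicular mice with 3 decimals had fold changes of 6.08, 13.3 and 21.1. The 4 with 6 decimals had 3.07, 38.9, 39.0 and 59.3, and the 1 with more decimals had 49.1. Of the 5 follicular mice above every luteal mouse, 4 were thus mice without 3 decimals. Within the 3-decimal mice, the O3 follicular mice had a -ΔCt of -10.20 ± 0.906 (SD, n = 3) and the O3 luteal mice -10.45 ± 0.592 (n = 6), a difference of 0.25 (exact permutation p = 0.655). The difference in linear fold change was 2.81 (exact permutation p = 0.440). With the format as a term in the model, the O3 phases differed by 0.71 on the log2 scale (limma adjusted p = 0.791), and the interaction of exposure and phase was -0.013. Il6 was also higher after O3 within the formats. In the 3-decimal mice the log2 fold change was 6.99 over the 4 stages (adjusted p = 7.75e-05), 6.77 in the follicular phase and 7.30 in the luteal phase. In the 6-decimal mice it was 8.52 in the follicular phase, where no FA mouse of this format had an Il6 Ct. The size of this last value therefore rests on the Ct given to empty wells. The part of the format in the other differences was not tested.

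**Figure D4:**
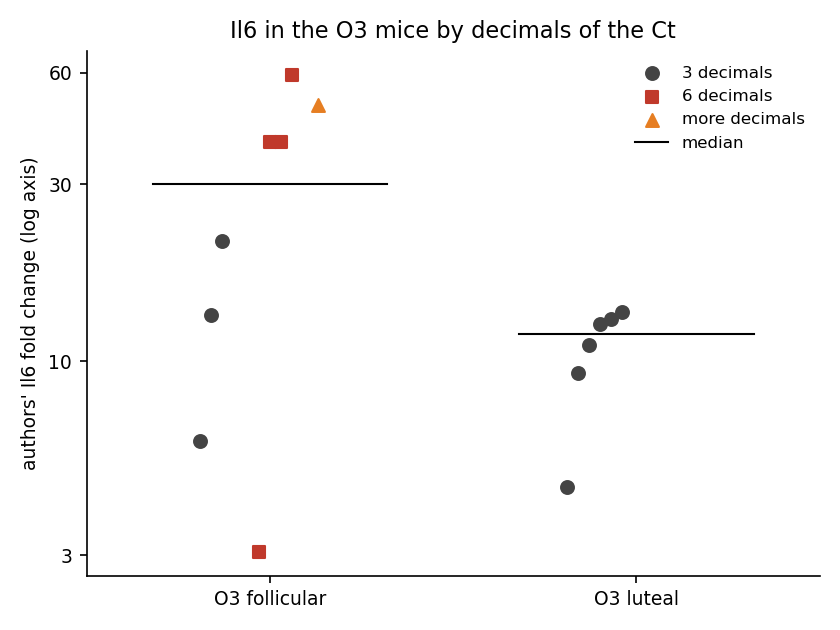
Deposited Il6 fold change (log axis, relative to 1 FA mouse) of the 14 O3 mice by phase, with symbols for the number of decimals of the Ct values and a line at the median. All 6 luteal mice have 3 decimals and lie between 4.58 and 13.6, and the 4 highest of all mice are follicular mice with 6 or more decimals.

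Il6 was set beside 12 genes of an acute inflammatory programme, all named because the study had picked them as changed in these same mice, so that their counts are no independent evidence of direction. Over the 4 stages all 12 were higher after O3, where 33.3% of the 84 wells were called. Their median log2 fold change was 1.84, against -0.016 over the 84 wells. In the follicular phase 10 of the 12 rose and in the luteal phase 6, where 22.6% and 21.4% of the 84 wells were called. No gene of the list fell in either phase. With reference well H2 alone, a setting added after the values were seen, 7 and 3 of the 12 rose, and Il6 rose in both phases. In this setting 10 and 6 of the 84 wells were called. The counts moved with the Ct format. With the format as a term 10 rose in the follicular and 9 in the luteal phase (19 and 25 of the 84 wells called). In the 3-decimal mice, 10 and 8 rose (20 and 24 called). With empty wells set to 36, 11 and 6 rose (19 and 16 called).

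Among receptors and signalling genes, the changes were small beside that of Il6. Cd14, a co-receptor for bacterial lipopolysaccharide, rose by 1.89 on the log2 scale in the follicular phase (limma adjusted p = 6.44e-05) and had a value of 0.69 in the luteal phase (adjusted p = 0.225). Il1r1, the interleukin-1 receptor, rose by 0.86 and 0.85 in the respective phases. Myd88, the adaptor of Toll-like and interleukin-1 receptors, was at 0.25 in the follicular phase (adjusted p = 0.707) and rose by 1.52 in the luteal phase (adjusted p = 0.0150). Fos, a subunit of AP-1, rose by 1.14 in the follicular phase and was at 0.95 in the luteal phase (adjusted p = 0.0588). These 4 genes had a Ct in every mouse, so that their values do not depend on the Ct given to empty wells. Calls on 3 of them changed with the format. With the format as a term, Cd14 (1.08, adjusted p = 0.0260) and Fos (1.28, adjusted p = 0.00247) were called in the luteal phase. In the 3-decimal mice, Myd88 was called in both phases, at 1.09 in the follicular (adjusted p = 0.0477) and 1.11 in the luteal phase. With reference well H2 alone, Il1r1 was called in neither phase (1.07, adjusted p = 0.236, and 0.99, adjusted p = 0.466). Fos in the follicular phase (1.35, adjusted p = 0.126) and Myd88 in the luteal phase (1.67, adjusted p = 0.143) were not called there either, while Cd14 kept its follicular call.

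Among the effector genes, Ccl20 and Cxcl5 were closest to Il6 in size. Ccl20 rose by 7.78 in the follicular and 6.95 in the luteal phase, and Cxcl5, a neutrophil attractant, by 7.69 and 4.01. Like Il6 they had FA mice without a Ct, with Ccl20 detected in 17 of 20 and Cxcl5 in 15 of 20. With empty wells set to 36, the follicular and luteal differences were 5.11 and 4.31 for Il6 and 7.44 and 5.95 for Ccl20. For Cxcl5 they were 6.69 and 3.01. Ccl20 was then above Il6 in both phases, so the likeness in size depended on the Ct given to empty wells. The inducible cyclooxygenase Ptgs2 rose by 2.52 and 1.65, and the neutrophil attractant Cxcl2 by 3.02 and 2.83, both with a Ct in every mouse. Cxcl1, another neutrophil attractant, rose by 4.15 in the follicular phase and was at 1.88 in the luteal phase (adjusted p = 0.143). The monocyte attractants Ccl2 and Ccl7 rose by 2.11 and 1.32 in the follicular phase and were at 0.95 (adjusted p = 0.102) and 0.42 (adjusted p = 0.527) in the luteal phase. Cxcl3 was at 2.35 (adjusted p = 0.0564) and 2.15 (adjusted p = 0.143). With empty wells set to 36, Cxcl5 was no longer called in the luteal phase (3.01, adjusted p = 0.0659), whereas Cxcl1 was called there (2.04, adjusted p = 0.0472) and Cxcl3 in the follicular phase (2.01, adjusted p = 0.0130). With the format as a term, Ccl2 was called in the luteal phase (1.20, adjusted p = 0.0260), and in the 3-decimal mice Ccl7 was not called in the follicular phase (1.26, adjusted p = 0.0559). No gene of the list passed the test of the interaction of exposure and phase. Between the O3 phases, only Cxcl1 (3.12, adjusted p = 0.0364) and Cxcl5 (4.69, adjusted p = 0.0282) of the 12 passed, and neither comparison was called in the 3-decimal mice, where 0 of the 12 passed.

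**Figure D5:**
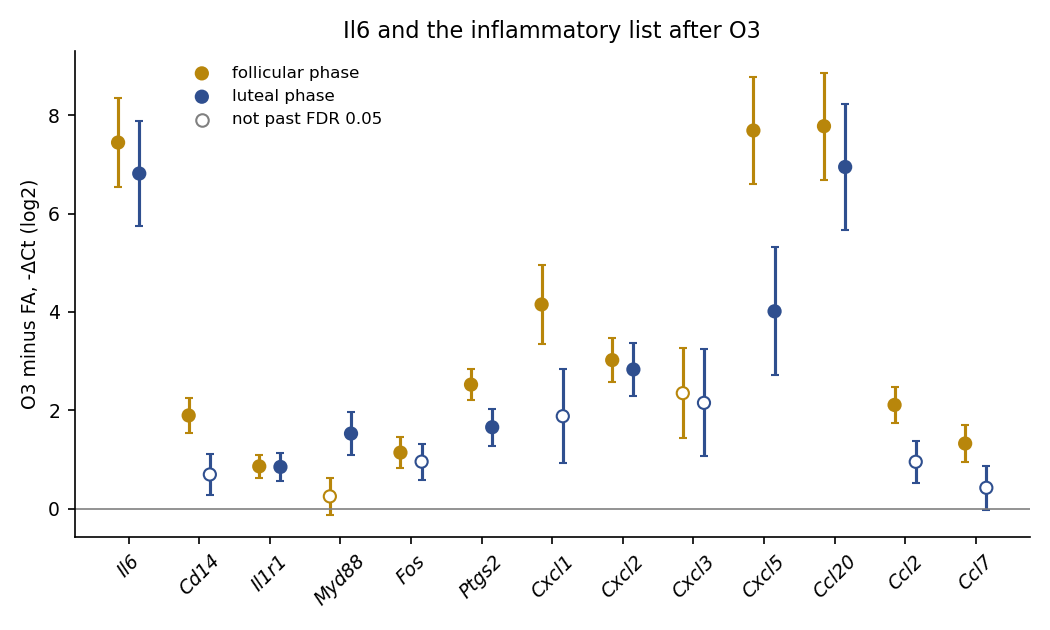
O3 minus FA in -ΔCt (log2) for Il6 and the 12 genes of the inflammatory list in the follicular and luteal phase, with standard errors. Filled points passed FDR 0.05 over the 84 wells and open points did not. Il6, Ccl20 and Cxcl5 stand above the others in the follicular phase, at 7.44, 7.78 and 7.69.

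By the pattern of the 8 group means of -ΔCt, the wells most like Il6 were Cxcl2 (Pearson's r 0.981), Ptgs2 (0.950) and Ccl19 (0.948), a chemokine that guides dendritic and T cells. The median over the other 83 wells was -0.032. These are descriptions over 8 means, which share the reference wells and were mainly spread by exposure.

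Among the 14 O3 mice, Il6 was compared with the 19 other named genes to see whether mice with more Il6 had more of other RNAs. By Pearson's r, 0 of the 19 passed adjustment. The highest were Ccl11, an eosinophil attractant (r 0.67, rho 0.70), Cxcl10, a T cell attractant (r 0.61, rho 0.49), and Cxcl5 (r 0.60, rho 0.62). The permutation p-values for r were 0.00814, 0.0210 and 0.0247, each 0.148 after adjustment over the 19. The permutation p-values for rho were 0.00730, 0.0794 and 0.0211, adjusted to 0.0462, 0.168 and 0.0902. By rho 3 genes passed, Ccl11, Cxcl1 and Ccl20. Without the 2 mice farthest from the Il6 median, r was 0.71 for Ccl11, 0.62 for Cxcl10 and 0.83 for Cxcl5. Within the 9 O3 mice with 3 decimals, r was 0.04, -0.30 and 0.34, and 0.60, 0.28 and 0.70 without the 2 mice farthest from their Il6 median, so r within that format depended on these mice. None of the 19 genes passed there, and the other formats held too few O3 mice. Over all 83 other wells the median r with Il6 was 0.27, and 65 were above 0.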

How the data were processed

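Lung RNA of each mouse was reverse transcribed and run on 1 SYBR Green PCR array. The authors deposited Ct values, exported without normalization, and fold changes (a ratio on the linear scale) computed from them by the ΔΔCt method with 4 endogenous control genes, a Ct of 36 for empty wells and 1 FA mouse as calibrator. Here, -ΔCt was fitted for all 84 wells and 34 mice with limma 3.58.1 (R 4.3.3), with groups of exposure and stage (8) or exposure and phase, and Benjamini-Hochberg adjustment over the 84 wells. All adjusted p-values are limma's unless another test is named. The fit was tested on simulated data with normally distributed noise and no empty wells. That setting differs from Il6 in the FA mice, so it does not test the fit for wells given a Ct of 40. Fisher's exact tests used scipy 1.17.1, and the permutation tests were computed in Python 3.11.15 with numpy 2.4.6. Replicates are separate mice according to the study, and p-values measure the spread between them. The files do not give molecule numbers, so no counting error is given. Empty wells were given a Ct of 40. The 17 wells named by printed differences and 3 named from heatmap colors (Cxcl3, Ccl19, Ccr2) were used. Il6, the inflammatory list, the motifs and the tests were chosen with earlier results of these data known. Genes named with values were the list, the 3 most like Il6 over the group means and the 3 with the highest r in O3 mice. Alternatives covered empty wells, reference wells, a filter on dim wells, scale, fit, Ct format, replicate block and each mouse left out. The fits in 6-decimal mice, the division at the reference Ct, the mice with no Ct in H6, the correlations in 3-decimal mice, and the settings for the list and for wells without overlap were added after seeing the data.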

Additional observations from a re-analysis of the deposited data

Results flagged for a closer look

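Within groups of 4 to 10 mice, the gap between the most extreme mouse and its neighbor was compared with the range of the group (Dixon's criterion) for Il6, the reference wells and 2 sets of control wells. Of 32 groups tested, 8 gave a flag, where chance flags about 1 in 20. For Il6, O3 metestrus replicate 1 was at a -ΔCt of -11.59, below the other 5 O3 luteal mice (-10.57 to -10.02). Without this mouse, O3 against FA in the luteal phase was 7.04, against 6.81 with it, and the O3 phases differed by 0.74.

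The other flags concern control wells. For the positive PCR control wells, FA diestrus replicate 2 had a mean Ct of 27.5 (other FA luteal mice 19.7 to 20.7), FA proestrus replicate 1 of 23.6 (others of its group 19.2 to 20.5), and O3 estrus replicate 1 of 23.1 (other O3 follicular mice 19.01 to 20.6). For wells H7 to H9, the reverse transcription controls on arrays of this family, FA diestrus replicate 2 was at 26.7 (other FA luteal mice 21.5 to 22.5) and O3 proestrus replicate 3 at 18.8 (others of its group 21.4 to 22.4). FA diestrus replicate 2 was flagged in its stage and in its phase for both sets of wells. It had no Ct for Il6, and without it O3 against FA in diestrus was 5.51 (limma adjusted p = 0.0314). Without O3 estrus replicate 1, O3 against FA in estrus was 5.78 (adjusted p = 0.0318). Without FA proestrus replicate 1, O3 against FA in proestrus was 8.47 (adjusted p = 9.65e-06), and without O3 proestrus replicate 3 it was 7.94 (adjusted p = 0.000175).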

How the results depend on the processing

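Over all settings other than leaving out 1 mouse, 265 values kept their direction and side of the threshold, 17 lost the call, 1 gained it, 3 reversed and 3 counts moved. Without a reference, O3 against FA was 6.81 in metestrus (adjusted p = 0.0790) and 5.599 in diestrus (0.109), and in a separate fit 5.96 in diestrus (0.240). On the linear fold changes it was 9.63 in metestrus (0.941), 10.5 in diestrus (0.535) and 10.1 in the luteal phase (0.244), while O3 follicular against O3 luteal was 18.1 (0.0355). In the 3-decimal mice it was 6.86 in estrus (0.146) and 6.53 in diestrus (0.0611), and the interaction of exposure and phase was -0.54. With the format as a term the interaction was -0.013, and with empty wells left missing FA follicular against FA luteal was -0.091. The cause was not tested. The differences in detection, in percentage points, were 53.8 overall (adjusted exact p = 0.05003), 50 follicular (0.236) and 60 luteal (0.0909) in the 3-decimal mice. They were 40 (0.309), 20 (1) and 60 (0.643) at or below the median reference Ct, and 85.7 follicular (0.05) and 66.7 luteal (0.143) above it, in fewer mice, and 66.7 luteal (0.0606) in mice with no Ct in H6. Genes past adjustment with Il6 in O3 mice by Pearson's r numbered 12 with H2 alone, 14 without a reference and 3 for deviations from the stage means, against 0. By rho they numbered 2, 15 and 3, against 3. With H2 alone, r was 0.85 for Ccl11, 0.83 for Cxcl10 and 0.60 for Cxcl5. Without the 2 mice farthest from the Il6 median it was 0.39, 0.35 and 0.74.

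Leaving out each mouse in turn, O3 against FA ranged from 6.80 to 7.32 over the stages, 7.42 to 8.61 in proestrus, 5.78 to 7.78 in estrus, 7.13 to 8.63 in metestrus, 4.88 to 6.78 in diestrus, 7.15 to 7.83 in the follicular and 6.44 to 7.31 in the luteal phase, with every call kept (highest adjusted p 0.0451, in diestrus). FA follicular against FA luteal ranged from -0.038 to 0.84 and was below 0 without FA metestrus replicate 2 or 3 (-0.038 and -0.020). The luteal detection difference ranged from 57.1 to 71.4 percentage points.

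The median log2 change of the 84 wells over the 4 stages was -0.016, and 0.24 with H2 alone. The number of wells called in that comparison ranged from 12 to 38 over the settings, against 28. With the replicate number as a block, O3 against FA over the 4 stages was 7.24, and the block changed no call on Il6. The numbers did not pair the mice: the deviations of 98 same-numbered pairs had a median correlation of 0.06 (lowest -0.60), against -0.02 for other pairs, and 12 of 34 mice correlated best with their own number.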
